A study of Mus musculus with 20 samples.

Results

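CD4+ T effector cells without Pcbp2 were stimulated through their antigen receptor for 6 h, and their mRNA was compared with that of sorted cells at baseline. The comparison set 3 libraries of stimulated cells against 6 libraries of unstimulated cells, all from mice labelled Fl-Pcbp2/CD4cre (CKO), in which a floxed Pcbp2 gene is recombined by a Cre driven by CD4 regulatory sequences. Genes were taken where their mean level over these 9 libraries reached 1 CPM, which gave 13605 of the 49315 genes in the count table, 11593 of them protein coding. Each gene was measured in every library by RNA sequencing of poly(A)-selected RNA, and CPM is the gene's read count scaled to a common library size, with library sizes adjusted by trimmed means (TMM).

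The cells were sorted from mouse spleen as CD4+CD25-, and the stimulus was beads carrying antibodies to CD3 and CD28. Control cells came from littermates labelled Fl-Pcbp2 (CTL), which carry the floxed gene without the Cre, with 6 libraries at 0 h and 5 at 6 h. Strain and age are not given in the labels used here. CKO cells kept in culture for 6 h with no beads are not among the libraries, so effects of the beads and of culture cannot be told apart. The labels do not tie a library to an animal, so p-values measure the spread between these libraries. The number in each title (5.13, 5.6 and 11.18 at 6 h; the same 3 and 4.24, 4.29 and 9.20 at 0 h) names a library here.

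Pcbp2 encodes an RNA-binding protein that recognises runs of cytosine and acts in splicing, mRNA stability and translation. A T cell that meets antigen together with costimulation signals through the receptor-associated kinase Lck and the adaptor Lat to calcium and NFAT, to MAP kinases and AP-1, and to NF-kB. Within hours these factors switch on immediate early genes, cytokines and their receptors, and growth genes, while many genes of the resting state are shut down.

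Pcbp2 itself (Ensembl ENSMUSG00000056851, chr15:102470539-102500061 on GRCm38, plus strand) was low in every CKO library. It measured 13.1, 17.4 and 22.1 CPM as the lowest, median and highest of the 6 libraries at 0 h, and 7.58, 11.3 and 7.27 CPM in libraries 5.13, 5.6 and 11.18 at 6 h. The CKO groups did not overlap each other. These levels were 5.09% of the CTL level at 0 h and 2.71% at 6 h, as ratios of mean CPM. Exact two-sided permutation tests of log2 CPM over libraries gave p = 0.00216 and p = 0.0179. Within CKO cells the residual signal fell by 0.968 on the log2 scale (exact two-sided permutation test, p = 0.0119, the smallest that 84 assignments allow). Of its exonic bases 36.2% overlap Map3k12, so part of this residue cannot be assigned to either gene. Its relatives Pcbp1 (255 ± 39.6 CPM, SD, n = 6, and 271 ± 64.3, n = 3) and Pcbp3 (8.53 ± 0.754 and 7.92 ± 0.443 CPM) were not called between the times, while Pcbp4 fell from 20.6 ± 2.43 to 15.2 ± 2.75 CPM, a call lost under several other scalings (adjusted p = 0.0314, and 0.0974 with the members scaled alone).

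Counts per CKO library summed to between 65.3 M and 85.6 M. Correlations of log2 CPM across genes, which are not independent replicates, lay between 0.964 and 0.988 within the 0 h libraries and between 0.979 and 0.986 within the 6 h libraries. For 2 of the 0 h CKO libraries and no 6 h CKO library, Xist went against the sex in the label, so sex was left out of the model, and counts are also given without these libraries, which are 4.24 and 5.6. A CTL library at 6 h stood apart, with 26.4 M counts and 23023 genes at 1 CPM or more against 13179 to 14827 in the other 19 libraries, and it entered the shared estimate of spread. The T cell markers Cd3e, Cd3g, Cd4 and Lck were high in all 9 libraries (Cd3e between 268 and 553 CPM). Markers of other cells were also present at 0 h, among them the B cell gene Ighm (547 ± 143 CPM) and the natural killer and CD8 T cell gene Prf1 (46.4 ± 11.1 CPM).

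Between 0 h and 6 h, 34.3% of the 13605 genes were called as changed in CKO cells. A gene is called where the p of edgeR's quasi-likelihood test, with Benjamini-Hochberg adjustment across 28082 genes, lay under 0.05. By this rule 4663 of the 13605 genes were called (34.3%), 1195 higher (8.78%) and 3468 lower (25.5%) at 6 h. These shares are the comparison for the counts of the gene lists below. A change of at least 2-fold was reached by 1674 of them (12.3%), 469 higher (3.45%) and 1205 lower (8.86%). At least 4-fold changes were found in 475 genes (3.49%), 130 higher (0.956%) and 345 lower (2.54%). Over all 28082 genes tested, 36% were called, 22.3% higher and 13.7% lower, with 25.2% at least 2-fold (19.6% higher, 5.62% lower) and 18.7% at least 4-fold (16.8% higher, 1.89% lower), and the genes left aside here are those under 1 CPM. Without the shallow CTL library 6406 genes were called, 1814 higher and 4592 lower, and without the 0 h CKO libraries 4.24 and 5.6 the call was made for 4019, 773 higher and 3246 lower. The 3 stimulated libraries all lay above the 6 unstimulated ones for 1408 genes (10.3%) and all below them for 4202 (30.9%), against 29.9% and 17.1% of all genes tested.

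The balance of higher and lower calls depended on how the libraries were scaled. The share of calls that were lower was 74.4% with TMM over all genes tested, 66.3% with relative log expression (RLE) factors, 55.4% with library totals alone and 50.3% with TMM over the 13605 genes alone. The median log2 change of the 13605 genes moved from -0.158 to 0.00528 between the first and the last of these. The last scaling called 4660 genes, 3538 of them called in the same direction by the main scaling. For this reason the changes described below are mostly those well over the shift. Over all 28082 genes tested the median was 0.15.

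Shares called lower were alike above 1 CPM. Of the 230 genes whose 0 h mean was under 1 CPM, 139 were called higher and 0 lower, but these passed the 1 CPM minimum through their 6 h level and had to be higher. Of the 4242 genes between 1 and 10 CPM at 0 h, 8.53% were called higher and 22.3% lower, and of the 6553 between 10 and 100 CPM 8.13% and 29.2%. The shares were 6.43% and 23.7% for the 2488 genes between 100 and 1000 CPM, and 1.09% and 23.9% for the 92 genes above that.

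**Figure D1:**
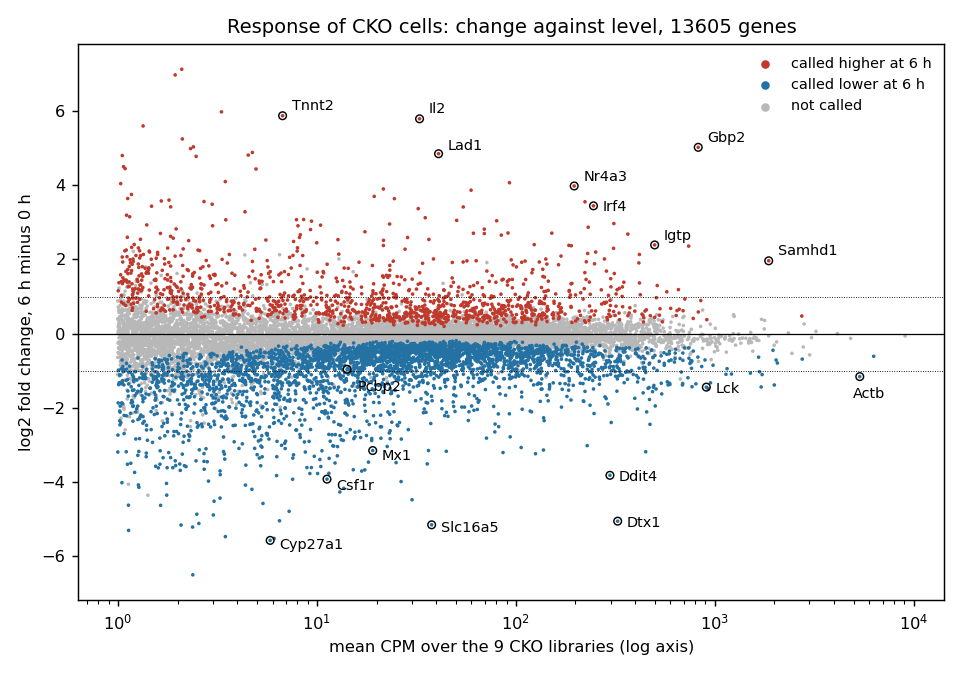
Log2 fold change of CKO cells (6 h minus 0 h) against the mean CPM over the 9 CKO libraries on a log axis, 1 point per gene, with called genes in red and blue, uncalled ones in grey and dotted lines at 2-fold. Rises reach highest among genes of low and middle level, such as Tnnt2 and Il2, while Gbp2 and Samhd1 rise to over 2000 CPM, and Dtx1 and Ddit4 are among the deepest falls of well expressed genes.

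The 15 largest rises among genes averaging at least 4 CPM, predicted Gm genes aside, were led by Tnnt2, Il2, Gbp2, Atf3, Lad1 and Mpzl2, followed by Fosl2, Nr4a3, Lif, Gbp11, Nr4a2, Mir155hg, Gbp5, Irf4 and Crem. Tnnt2, the cardiac form of troponin T, measured between 0.214 and 0.51 CPM at 0 h (median 0.287) and 13.2, 14.9 and 30.6 CPM at 6 h. Its rise was 58.6-fold (log2 change 5.87 ± 0.37 SE, adjusted p = 2e-09). Lad1, which encodes ladinin, a protein known from basement membranes, rose from 3.99 ± 1.37 to 115 ± 69.8 CPM (28.8-fold). Lad1 (chr1:135818598-135833342) lies just before Tnnt2 (chr1:135836354-135852260) on the plus strand. Library 11.18 was the highest at 6 h for both, and whether their rises are separate was not tested. Mpzl2, an adhesion molecule of the myelin P0-like family, rose from 0.448 ± 0.214 to 12.7 ± 2.7 CPM, with 30.7% of its exonic bases shared with Gm48840. Crem, a cAMP-responsive bZIP factor, rose with little spread at either time: 9.99, 13.2 and 15.2 CPM as lowest, median and highest at 0 h, and 142, 126 and 145 CPM at 6 h (10.7-fold, adjusted p = 2.75e-12). Groups did not overlap for any of these 15 genes, but they were picked as the largest rises in these same libraries. All 6 h libraries lay above all 0 h ones for 10.3% of the 13605 genes. Tnnt2, Atf3 and Mpzl2 were under 1 CPM at 0 h and passed the minimum through their 6 h level.

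In the interleukin 2 circuit, through which stimulated T cells drive their own growth, mRNA rose for the ligand, the receptor's alpha chain and several downstream genes. Of 14 genes in this list, 9 rose, 0 fell and 5 were not called, with a median log2 change of 1.21 against -0.158 over the 13605 genes. Il2 measured 1.42, 1.68 and 2.15 CPM as lowest, median and highest at 0 h, and 61.9, 40.3 and 184 CPM in libraries 5.13, 5.6 and 11.18 at 6 h. Every stimulated library was far above every unstimulated one, and the rise was 55.4-fold (log2 change 5.79 ± 0.43 SE, adjusted p = 1.02e-08). Il2ra, the alpha chain that raises the receptor's affinity and is the CD25 on which the cells were sorted as negative, rose from 23.5 ± 8.6 to 194 ± 101 CPM (8.24-fold, adjusted p = 1.22e-05). Its call was lost in the fit of the 9 CKO libraries with the number as a block (log2 change 2.95, adjusted p = 0.107). The shared chains differed from it. Il2rb measured 331 ± 89.9 and then 229 ± 32.9 CPM, and Il2rg 418 ± 25.1 and then 373 ± 18.1 CPM, and neither was called.

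Downstream of the receptor, Stat5a rose 3.13-fold to 408 ± 73.3 CPM and Stat5b 1.96-fold to 757 ± 75.6 CPM, the transcription factors that carry the signal to the nucleus. Their targets Cish and Socs1, which dampen cytokine signalling, rose 3.61-fold and 2.73-fold, and the kinase gene Pim1 rose 4.39-fold from 197 ± 27.1 to 864 ± 142 CPM. The call of Socs1 was lost in the fit of the 9 CKO libraries with the number as a block (adjusted p = 0.0964). The kinases Jak1 and Jak3 were not called (log2 changes of -0.18 ± 0.19 and -0.78 ± 0.30). With the members scaled alone 9 genes of the list were called higher, and the 9 calls of the main fit were kept with the library number as a block.

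The promoter of Il2 is shown because this gene made the largest rise among the cytokines of the lists that were over 1 CPM at 0 h. The stretch below holds bases -157 to -6 before the RefSeq start (GRCm38.p6, chr3:37125960-37126111, minus strand), in lower case with the core of the NFAT site, GGAAAA on either strand, and TATAAA in capitals.
Il2: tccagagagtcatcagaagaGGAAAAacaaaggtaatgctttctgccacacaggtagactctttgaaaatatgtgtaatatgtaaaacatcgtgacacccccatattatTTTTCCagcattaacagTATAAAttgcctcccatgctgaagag
The 6 letters GGAAAA occurred in the 250 bases before the start of 18.4% of the 9732 genes with a promoter in the RefSeq table and of 22.5% of the 102 that rose at least 4-fold and 16.7% of the 335 that rose at least 2-fold, against 20.6% of all 27018 promoters in the table. TATAAA was found in 6.36% of the 9732 and in 21.6% of these 102 and 14.9% of these 335, against 13% of all. A match is a stretch of letters and does not show that a factor is bound.

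Several cytokines of the helper lineages rose from near zero. Of 19 genes in the list, 10 rose, 2 fell and 7 were not called (median log2 change 1.59). Il17a, Il22, Il17f, Il13, Il5 and Csf2 were under 1 CPM at 0 h, passed the 1 CPM minimum through their 6 h level and had to be higher. A further 5 cytokines of the list stayed under the minimum. The count and the median are therefore of those that reached this level. Il17a was at 0, 0.0189 and 0.183 CPM as lowest, median and highest at 0 h and at 12.2, 2.19 and 4.27 CPM at 6 h. Il22 went from 0, 0.0567 and 0.214 CPM to 8.82, 0.476 and 2.3 CPM, and Il17f from a mean of 0.206 ± 0.0857 to 13.5, 1.98 and 4.89 CPM, so that library 5.13 was the highest for all 3 genes of the type 17 program. Il13, a type 2 cytokine, measured 0.156 ± 0.106 CPM at 0 h and 4.4, 4.37 and 9.31 CPM at 6 h, and Il5, of the same type, 0.104 ± 0.0679 and then 2.96 ± 1.32 CPM. Csf2, which encodes the myeloid growth factor GM-CSF, rose from 0.129 ± 0.0591 to 2.95 ± 1.58 CPM.

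Ifng, the type 1 cytokine interferon gamma, differed between the stimulated libraries. It measured 3.36, 7 and 12.1 CPM as lowest, median and highest at 0 h, and 11.4, 10.8 and 55.9 CPM at 6 h, so that 2 stimulated libraries lay within the unstimulated range and 11.18 alone lay above it. The rise was 3.4-fold (log2 change 1.77 ± 0.43 SE, adjusted p = 0.00459), and without library 11.18 the call was lost. Its log2 change was then 0.529 (adjusted p = 0.3). Lif, a cytokine of the interleukin 6 family, rose 14.9-fold to 57.3 ± 34.6 CPM, and Il4 3.01-fold to 9.48 ± 2.04 CPM. Osm, a relative of Lif, fell from 28.6 ± 3.27 to 14.3 ± 1.2 CPM. Il21, a cytokine of follicular helper cells, was not called (38.1 ± 27.9 and 18.4 ± 11.3 CPM).

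The chemokines followed. Of 8 above the 1 CPM minimum, 7 rose and 1 fell, while 6 further chemokines of the list stayed under it, so the count is of those that reached this level. Ccl22, an attractant of Ccr4-bearing cells, measured 0.153 ± 0.139 CPM at 0 h and 7.11, 6.07 and 15.8 CPM at 6 h, and Ccl1 rose from 0.25 ± 0.0484 to 3.34, 2.48 and 15 CPM. Ccl3 and Ccl4, inflammatory chemokines, reached 4.26 ± 3.24 and 8.47 ± 6.95 CPM, with library 11.18 highest for both, and the call of Ccl3 was lost without it (log2 change 1.29, adjusted p = 0.0719). Cxcl10, an interferon-induced attractant of Cxcr3-bearing cells, rose 7.75-fold to 55.5 ± 30.9 CPM. Ccl5, made by effector and memory cells, fell from 37.7 ± 11.5 to 12.7 ± 1.14 CPM.

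The interferon-inducible GTPases, which attack the membranes around intracellular pathogens, rose almost without exception: 18 of 19 rose, 0 fell, and the median log2 change was 2.30. Their summed level went from between 1610 and 2040 CPM at 0 h to between 9480 and 11400 CPM at 6 h. Gbp2 measured 57, 69.1 and 104 CPM as lowest, median and highest at 0 h, and 2350, 2010 and 2670 CPM in libraries 5.13, 5.6 and 11.18. The rise was 32.5-fold (log2 change 5.02 ± 0.21 SE, adjusted p = 5.35e-12), and the 3 stimulated libraries differed from each other by far less than from the unstimulated ones. Gbp11 rose 14.6-fold, Gbp5 11.7-fold, Gbp10 8.3-fold and Gbp3 6.55-fold. Gbp4 rose 5.13-fold, from 312 ± 21 to 1600 ± 115 CPM.

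The immunity-related GTPases rose too, by amounts that overlapped those of the Gbp genes. Igtp went from 207 ± 24.8 to 1090 ± 53.7 CPM (5.25-fold), Irgm1 from 107 ± 12.8 to 477 ± 13.3 CPM (4.47-fold) and Irgm2 from 117 ± 11.6 to 447 ± 47.7 CPM (3.83-fold). Iigp1 rose 7.3-fold to 545 ± 134 CPM, Tgtp1 6.54-fold to 349 ± 15 CPM and Ifi47 3.08-fold to 569 ± 39.2 CPM. Gbp2b was not called, with values between 0.42 and 9.88 CPM at 0 h and 8.91, 7.24 and 0.862 CPM at 6 h. Members of this family are near copies of each other, so reads can be split between Gbp or Tgtp genes, and 46.3% of the exonic bases of Gbp10 are shared with Gm43302. Gbp5, Gbp7 and Gbp3 are neighbours on chromosome 3, and all 3 rose at least 4-fold within 79.2 kb.

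Promoter stretches of 8 of these genes are shown because the RefSeq table held promoters for 11 of the 19 and nearly all shared a motif. Capitals mark the interferon response letters (GAAA, any 2 bases, GAAA) and the gamma-activated letters TTCNNNGAA, on either strand and overlapping matches included. Each stretch runs from 20 bases before the first match to 20 after the last where the promoter allows, within the 250 bases before the start, on build GRCm38.p6.
Gbp2, chr3:142620584-142620633, plus strand: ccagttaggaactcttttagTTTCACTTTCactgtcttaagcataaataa
Gbp3, chr3:142559979-142560034, plus strand: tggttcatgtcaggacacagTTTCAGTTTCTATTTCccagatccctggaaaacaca
Gbp7, chr3:142530210-142530312, plus strand: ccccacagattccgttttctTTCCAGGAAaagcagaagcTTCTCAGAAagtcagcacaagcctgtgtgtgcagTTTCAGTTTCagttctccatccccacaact
Igtp, chr11:58199491-58199551, plus strand: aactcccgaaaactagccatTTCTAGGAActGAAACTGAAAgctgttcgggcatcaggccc
Irgm2, chr11:58214882-58214942, plus strand: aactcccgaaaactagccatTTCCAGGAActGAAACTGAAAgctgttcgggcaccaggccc
Tgtp1, chr11:48992294-48992354, minus strand: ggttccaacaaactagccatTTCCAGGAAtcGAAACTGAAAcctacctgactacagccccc
Irgm1, chr11:48871421-48871470, minus strand: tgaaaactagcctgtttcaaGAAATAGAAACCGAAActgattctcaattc
Gbp2b, chr3:142594690-142594739, plus strand: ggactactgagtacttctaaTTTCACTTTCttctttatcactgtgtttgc

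The interferon response letters occurred in 10 of these 11 promoters (90.9%), against 2.76% of the 9732 genes with a promoter in the table and 3.04% of all 27018 promoters of the same length. TTCNNNGAA occurred in 6 of the 11 (54.5%), against 6.02% of the 9732 and 7.18% of all. In Igtp, Irgm2 and Tgtp1, and in Tgtp2, whose promoter is not printed, both motifs stood next to each other in the same order, 2 bases apart. The stretches of Igtp and Irgm2 are nearly identical, so promoters of this family are not independent of each other. The uncalled Gbp2b held the interferon response letters as well, and Ifi47, which rose, held neither of them in this window. The GTPases were chosen as a family known to respond to interferon, so this share describes the family, and binding was not measured.

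Other interferon targets split. In the list of interferon gamma and MHC class I genes, 10 of 18 rose, 0 fell and 8 were not called (median 0.404). Ifngr1, a chain of the interferon gamma receptor, rose from 115 ± 13 to 528 ± 98 CPM (4.59-fold). Cd274, the inhibitory ligand PD-L1, rose from 77.2 ± 14.3 to 401 ± 66.9 CPM (5.2-fold), Irf1 from 347 ± 30.1 to 852 ± 53.7 CPM and Jak2 2.33-fold. Samhd1, a dNTP-hydrolysing restriction factor, made the largest rise in CPM among the 13605 genes, from 800, 967 and 1040 CPM as lowest, median and highest to 3870, 3380 and 3880 CPM.

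In the list of type I interferon genes the balance was the opposite, with 4 of 29 higher, 13 lower and 12 not called (median -0.374, and -0.211 with the members scaled alone, where 7 were higher and 10 lower). Mx1, a dynamin-like antiviral GTPase, measured 18.6, 28.5 and 33.1 CPM as lowest, median and highest at 0 h and 3, 2.96 and 3.21 CPM at 6 h. That fall of 3.15 on the log2 scale (SE 0.27, adjusted p = 7.89e-08) left no overlap between the groups. Mx2 fell 5.39-fold, Rsad2 3.43-fold and Isg15 2.12-fold. Stat2, Zbp1 and Oasl2 rose 2.2-fold, 2.24-fold and 2.5-fold.

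**Figure D2:**
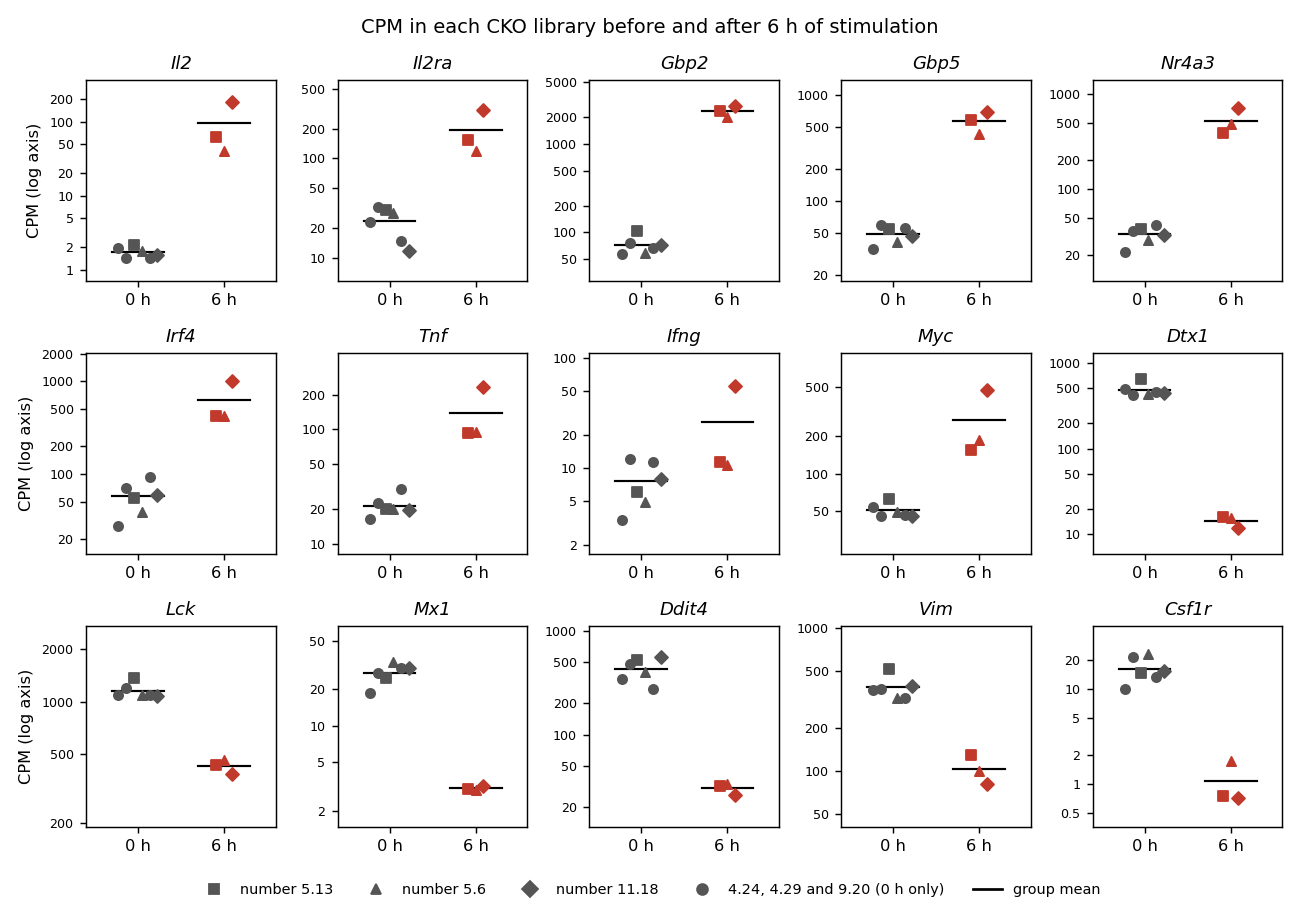
CPM of 15 genes in each CKO library at 0 h (grey, 6 libraries) and 6 h (red, 3 libraries) on log axes, with marker shapes for the library numbers found at both times and a line at the group mean. The groups are apart for every gene but Ifng. Library 11.18 is the highest at 6 h for Il2, Il2ra, Gbp2, Gbp5, Nr4a3, Irf4, Tnf, Ifng and Myc, among others.

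Transcription factors induced by receptor signalling rose in 2 families. Of 16 NR4A, EGR and other immediate early genes, 10 rose, 2 fell and 4 were not called (median 0.916). Nr4a3, an orphan nuclear receptor, measured 21.7, 34.5 and 42.1 CPM as lowest, median and highest at 0 h and 385, 481 and 708 CPM at 6 h (15.8-fold, adjusted p = 5.11e-10). Nr4a2 rose 13-fold to 50.6 ± 15.1 CPM and Nr4a1, the gene also called Nur77, 7.82-fold to 745 ± 249 CPM. The zinc finger genes Egr3, Egr2 and Egr1 rose less, by 3.12-fold, 1.8-fold and 1.75-fold. The groups overlapped for Egr2 and Egr1, and the call of Egr2 was lost in 5 of the other settings, among them the fits without the 6 h library 11.18 and without the 0 h library 5.6. Srf, the serum response factor, fell from 167 ± 13 to 98.8 ± 16.3 CPM.

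Of 18 AP-1 and partner genes, 10 rose, 3 fell and 5 were not called (median 0.797). Fosl2 rose from 14.9 ± 4.47 to 250 ± 25.8 CPM (16.8-fold) and Atf3, a stress-inducible member, from 0.451 ± 0.166 to 13.4 ± 7.03 CPM. Fosb rose 5.79-fold. Jun measured 5.62, 6.69 and 26.4 CPM as lowest, median and highest at 0 h and 81.7, 56.9 and 119 CPM at 6 h, a rise whose adjusted p was 0.0141. Its call was lost without library 11.18 at 6 h and without the 0 h libraries 4.24 and 5.6 together. Fos (8.83 ± 4.05 and 28.1 ± 1.3 CPM, adjusted p = 0.116) and Batf (63.7 ± 25.4 and 61.5 ± 30.3 CPM) were not called. Maf, a driver of interleukin 4 and interleukin 10, fell from 314 ± 123 to 82.4 ± 10.1 CPM.

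Irf4, which sets the strength of the effector response downstream of the receptor, rose from 57.3 ± 23.4 CPM to 425, 423 and 1020 CPM (10.9-fold). The master regulators of the helper lineages were not called: Tbx21 for type 1 cells (28.8 ± 1.87 and 35.9 ± 27.2 CPM), Gata3 for type 2 cells (95 ± 12.5 and 86.3 ± 13.8 CPM) and Bcl6 for follicular helper cells (76.1 ± 33 and 75.1 ± 7.78 CPM). Cxcr5, a chemokine receptor of follicular helper cells, fell from 111 ± 45.8 to 24.6 ± 1.33 CPM, and Tox2, an HMG-box factor, from 79 ± 45 to 15.6 ± 1.54 CPM. Zbtb7b, the factor ThPOK that fixes the CD4 lineage, fell 3.54-fold from 289 ± 28.1 to 81.6 ± 12.9 CPM. Foxp3, of regulatory T cells, was called higher (71.1 ± 24.5 and 120 ± 23.5 CPM, adjusted p = 0.0328), but the groups overlapped, the call was lost in 8 of the other settings, and 31.5% of its exonic bases are shared with Flicr.

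The NF-kB system rose through its subunits and its brakes together. Of 24 genes, 13 rose, 1 fell and 10 were not called (median 0.503). Among the subunits, Nfkb2 rose from 132 ± 32.8 to 485 ± 99.6 CPM (3.69-fold), Rel 2.54-fold, Relb 2.37-fold and Nfkb1 2.19-fold, while Rela rose 1.41-fold (adjusted p = 0.0143) with a call that was lost in 6 of the other settings. Among the inhibitors, Tnfaip3, which encodes the ubiquitin-editing enzyme A20, rose from 139 ± 30.6 to 561 ± 77.2 CPM (4.04-fold), Nfkbid 4.26-fold and Nfkbia 1.67-fold. Ikbkb, the kinase that releases NF-kB, fell from 372 ± 37.6 to 228 ± 17.6 CPM. Tnfaip3 and Ifngr1 lie in a stretch of chromosome 10 of 609 kb in which 3 neighbouring genes of the set all rose at least 4-fold, with Gm33104 between them.

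The TNF family supplied further inducers and targets. Of 12 ligands, 4 rose and 1 fell. Tnf measured 16.4, 20.2 and 30.3 CPM as lowest, median and highest at 0 h and 92.9, 94.3 and 235 CPM at 6 h (6.53-fold, adjusted p = 1.31e-06). Of 15 receptors, 6 rose and 3 fell. The costimulatory receptors Tnfrsf9 (4-1BB), Tnfrsf4 (OX40) and Tnfrsf18 (GITR) rose 3.9-fold, 3.12-fold and 2.35-fold, while Cd27 fell from 371 ± 35.8 to 189 ± 28.9 CPM.

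Surface markers used to score activation did not move one way: of 14, 4 rose and 6 fell. Cd69, the early activation antigen, went from 59.5, 74.1 and 79.8 CPM as lowest, median and highest to 153, 231 and 470 CPM (4.03-fold). Tfrc, the transferrin receptor, rose from 47.5 ± 4.68 to 74.1, 88.8 and 216 CPM, a call lost without library 11.18 (log2 change 0.771, adjusted p = 0.125). The adhesion genes Cd44 and Itgal fell, Itgal from 1180 ± 220 to 422 ± 42.3 CPM. Lag3, an inhibitory receptor, fell from 109 ± 71.5 to 17.4 ± 6.53 CPM with overlapping groups.

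Feedback genes of the MAP kinases were mixed, with 5 of 13 phosphatase and Sprouty genes higher, 2 lower and 6 not called. Dusp5, which inactivates nuclear ERK, rose from 55.2 ± 8.1 to 192 ± 37.8 CPM (3.48-fold), with 22.1% of its exonic bases shared with another annotated gene. Dusp6, which inactivates cytoplasmic ERK, fell from 45.1 ± 9.22 to 22 ± 10.5 CPM with overlapping groups.

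Genes of growth and metabolism were mixed. Of 11 genes of Myc and the Max network 3 rose and 5 fell (median -0.0717). Of 29 genes of glucose uptake and glycolysis 3 rose and 9 fell (median -0.205), and of 10 polyamine genes 2 rose and 0 fell. Over the 13605 genes 8.78% were called higher and 25.5% lower, with a median of -0.158, close to the glycolysis list. With the members scaled alone, 6 glycolysis genes were higher and 6 lower (median -0.0398). In the Myc and Max list 4 were then higher and 3 lower (median 0.0909), and 5 polyamine genes were higher and 0 lower. The balance of these lists thus moved with the scaling. Myc, which drives growth, measured 46, 48.2 and 63.4 CPM as lowest, median and highest at 0 h and 155, 187 and 467 CPM at 6 h (5.28-fold, adjusted p = 3.67e-06), a call lost in the fit of the 9 CKO libraries with the number as a block (adjusted p = 0.0955). Mxd1, a Max partner that opposes it, rose 3.88-fold, while Mxd4 fell from 207 ± 25.8 to 95.5 ± 27.6 CPM. Odc1, the first enzyme of polyamine synthesis, rose from 131 ± 45.7 to 838 ± 156 CPM (6.42-fold). Hk2, an inducible hexokinase, rose 4.42-fold to 26.7 ± 17.4 CPM, while the main glucose carriers of T cells did not rise: Slc2a1 was not called (52.1 ± 4.76 and 46.3 ± 4.99 CPM) and Slc2a3 fell 2.72-fold.

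Of 40 ribosome biogenesis genes 13 rose and 0 fell, with a median log2 change of 0.418. Ncl, which encodes nucleolin, measured 544 ± 48.9 CPM at 0 h and 835, 846 and 1430 CPM at 6 h, and Nop16 17.5 ± 1.26 and then 25.1, 25.9 and 50.8 CPM. Library 11.18 was the highest for both. The count in this list moved with the model. Of the 13 calls, 9 were kept with the number as a block and 4 with the number within genotype as a block. With the members scaled alone 25 genes were called higher. The genes of cytosolic ribosomal proteins, a family picked after their values were seen, hardly moved, with 1 of 83 higher, 1 lower and a summed level of between 62800 and 64500 CPM at 6 h against 60400 to 94700 CPM at 0 h.

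Cell cycle genes did not rise as a group. Of 24 mitosis genes 0 rose and 1 fell, Prc1, whose call was lost with the members scaled alone (adjusted p = 0.0678), and the median was -0.614. Mki67 measured 99 ± 36.8 and 47.3 ± 8.08 CPM and Top2a 62.5 ± 20.5 and 34.7 ± 4.85 CPM, neither called, although all stimulated libraries lay under all unstimulated ones for both. With the number within genotype as a block, the adjusted p was 0.00077 for Mki67 and 0.000939 for Top2a. Of 25 G1 genes 4 rose and 9 fell. Ccnd1 fell from 24.3 ± 14.8 to 1.87 ± 0.405 CPM, Ccnd3 from 289 ± 41.1 to 123 ± 23 CPM and the late G1 genes Ccne1 and E2f2 3.73-fold and 4.07-fold, while Ccnd2, the most abundant cyclin gene of the list, was not called (549 ± 111 and 432 ± 202 CPM). The inhibitor gene Cdkn1a rose from 2.54 ± 0.793 to 19.1 ± 2.98 CPM (7.5-fold).

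Survival genes of both signs rose. Of 15 BCL2 family genes 4 rose and 2 fell. Bcl2l1, which protects, rose from 28.1 ± 3.91 to 70.3, 70.1 and 181 CPM (3.81-fold, lost in the fit of the 9 CKO libraries with the number as a block at an adjusted p = 0.123), and Bcl2l11, which kills, from 77.1 ± 9.93 to 251, 248 and 271 CPM (3.33-fold). Bcl2 was called lower (292 ± 33.2 and 203 ± 34.4 CPM), a call lost with the members scaled alone (adjusted p = 0.122).

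The machinery of the antigen receptor mostly fell. Of 30 T cell identity and receptor signalling genes, 18 fell, 3 rose and 9 were not called (median -0.761, and -0.598 with 16 lower and 4 higher with the members scaled alone). Lck measured 1070, 1090 and 1370 CPM as lowest, median and highest at 0 h and 431, 460 and 380 CPM at 6 h (2.72-fold lower, adjusted p = 1.65e-07). Lat fell 2.59-fold from 750 ± 73.7 to 290 ± 16.9 CPM, Cd3g 2.15-fold, Cd4 1.92-fold and Cd3e 1.72-fold, with no overlap for any of them. Ptpn6, the phosphatase SHP-1 that restrains the receptor, fell 3.26-fold, while Cblb, a ubiquitin ligase that also restrains it, rose from 164 ± 8.09 to 529 ± 32.1 CPM (3.22-fold). Zap70, whose groups overlapped, was called lower (adjusted p = 0.0307), and this was lost with the members scaled alone (adjusted p = 0.0651).

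The receptor chains fell too. Of 70 T cell receptor V segments, 55 fell and 0 rose (median -0.898), and of 46 J segments, 37 fell and 0 rose (median -1.24). The summed level of the 7 constant genes went from between 1740 and 2160 CPM to between 1000 and 1160 CPM. The segments were grouped after their values were seen, and near-identical segments share reads.

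The cytoskeleton gave many of the largest falls in CPM. Of 30 cytoskeleton, S100, annexin and galectin genes, 17 fell, 2 rose and 11 were not called (median -0.688, and -0.523 with 11 lower with the members scaled alone). Actb measured 5860, 6290 and 8680 CPM as lowest, median and highest at 0 h and 2850, 2830 and 3160 CPM at 6 h, a 2.23-fold fall (adjusted p = 1.89e-05). Coro1a and Pfn1, which regulate actin filaments, fell 2.15-fold and 2.09-fold, and Tmsb4x, which binds free actin, 1.73-fold, the last not called with the members scaled alone (adjusted p = 0.0719). Vim, the intermediate filament gene, fell 3.72-fold from 385 ± 73.2 CPM. S100a4 fell 5.7-fold, S100a6 4.35-fold, Lgals1 3.49-fold and Anxa6 3.35-fold. For S100a4, 51.7% of the exonic bases are shared with Gm42674.

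Genes of the resting state moved apart. Of 33 naive state and quiescence genes 10 fell and 6 rose (median -0.223), against 25.5% lower and 8.78% higher over the 13605 genes. With the members scaled alone 9 fell and 10 rose (median -0.0628), so the balance turned with the scaling. Dtx1, a Deltex gene of the Notch pathway, fell from 424, 444 and 652 CPM as lowest, median and highest to 16.1, 15.4 and 12 CPM, 33.2-fold and the deepest fall of any gene over 100 CPM at 0 h. Foxo1, a factor that keeps T cells quiescent, fell 2.16-fold and Id3 3.51-fold, while Satb1, a chromatin organiser, rose from 664 ± 127 to 1230 ± 60 CPM. Il7r (307 ± 42.2 and 307 ± 41.8 CPM) and Klf2 (455 ± 81.5 and 579 ± 156 CPM) were not called. Ddit4, an inhibitor of mTORC1, fell from 432 ± 110 to 30.6 ± 4.05 CPM (14.1-fold, adjusted p = 1.03e-07). Nfatc2 fell 2.57-fold from 161 ± 30.6 CPM.

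Several of the deepest falls belong to genes of other cell types. The 15 largest falls among genes averaging at least 4 CPM, predicted Gm genes aside, were those of Cyp27a1, Tgfbi, Slc16a5, Dtx1, Ffar2, Spns3, Itgax, Ampd1, Zfp683, Plbd1, Mefv, Pld4, Adgrg5, Csf1r and Tifab. Csf1r, the macrophage growth factor receptor, measured 10.1, 15.1 and 23.1 CPM as lowest, median and highest at 0 h and 0.751, 1.75 and 0.714 CPM at 6 h (15.2-fold lower). Itgax, which encodes CD11c of dendritic cells, fell from 44.3 ± 28.3 to 1.97 ± 1.15 CPM, and Cyp27a1, a sterol hydroxylase, from 8.67 ± 3.39 to 0.18 ± 0.0665 CPM. Slc16a5 fell 35.6-fold from 56 ± 11.2 CPM with little spread at either time. In bulk libraries, fewer cells of a type and less RNA per cell cannot be told apart.

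Summed markers of most other cells were lower in the stimulated libraries. For comparison, 25.5% of the 13605 genes were called lower. Of 11 myeloid markers over 1 CPM 7 fell and 0 rose, and the summed level of the list went from between 59.7 and 194 CPM to between 18.2 and 56.4 CPM, with Lyz2 going from 19.1 ± 12.9 to 0.53, 5.78 and 1.44 CPM and Cebpa from 51.8 ± 38 to 5.83 ± 0.54 CPM. Of 9 dendritic cell markers 5 fell and 1 rose, from between 103 and 305 to between 59.1 and 100 CPM. Of 14 B cell markers 3 fell, from between 435 and 964 to between 123 and 312 CPM, with Cd22 going from 35.2 ± 14.1 to 6.28 ± 3.33 CPM. Of 7 natural killer markers 3 fell, from between 74.9 and 115 to between 20.9 and 36.8 CPM, and of 5 CD8 T cell markers 3 fell, from between 52.3 and 89.1 to between 34.8 and 46.6 CPM. The summed stromal and endothelial genes overlapped between the times, as did those of gamma-delta T cells (18.5 to 36 CPM, then 9.11 to 20.6 CPM). The red cell and platelet sum was higher at 6 h (3.41 to 7.34 CPM, then 7.79 to 10.8 CPM), and the only gene of that list over 1 CPM was called higher. Vpreb3, Cd14, Mpo, Elane, Ly6g, Klra8, Klra4 and Klra7 of these lists stayed under 1 CPM, and the part of these cells in the falls was not tested.

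Genes of antigen presentation by MHC class II, a family picked after its values were seen, fell with them, 10 of 11 lower and only H2-DMa higher. H2-Aa, H2-Ab1 and H2-Eb1 fell 8.39-fold, 8.8-fold and 9.43-fold and are neighbours on chromosome 17, and Cd74, the invariant chain, fell 5.26-fold from 414 ± 165 CPM. The summed level of the 11 was between 583 and 1730 CPM at 0 h and between 177 and 316 CPM at 6 h. C1qa and C1qb, complement genes of macrophages, fell from 3.69 ± 2.37 to 0.124 ± 0.024 CPM and from 3.18 ± 1.86 to 0.263 ± 0.04 CPM.

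**Figure D3:**
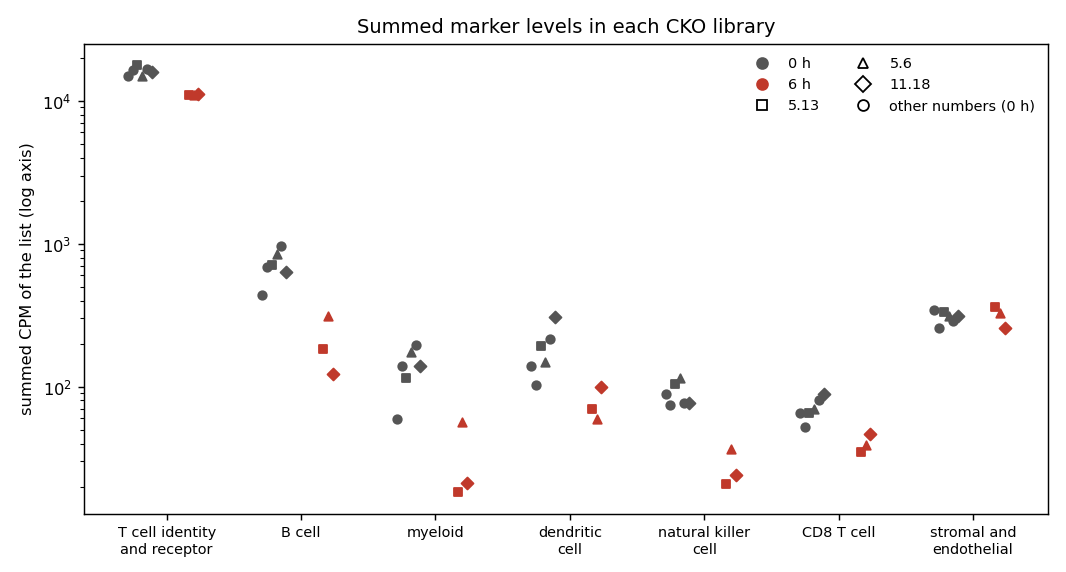
Summed CPM (log axis) of the T cell list and 6 marker lists of other cells in each CKO library, grey for 0 h and red for 6 h, with shapes for the library numbers. Every list but the stromal and endothelial one is lower in the 3 stimulated libraries than in the 6 unstimulated ones, and library 5.6 is the highest stimulated one for B cell, myeloid and natural killer genes.

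The 3 stimulated libraries differed in the size of the change. Over the 1674 genes changed at least 2-fold, which were chosen on these libraries, the median absolute log2 changes were 1.42, 1.43 and 1.62 in libraries 5.13, 5.6 and 11.18. Library 11.18 was the highest for Il2, Ifng, Tnf, Myc, Cd69, Irf4 and Bcl2l1, among other genes. Leaving it out gave 3309 called genes, the fewest of any 1 library left out, and 1383 changed at least 2-fold. Genes that varied widely between the stimulated libraries included Siglech, a gene of plasmacytoid dendritic cells (2.43, 0.889 and 12.3 CPM). Il22 (8.82, 0.476 and 2.3 CPM), Il17f and Ccl1 were others.

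The response of CTL cells, measured in other libraries but in the same fit, ran in the same direction. Of the 4663 genes called in CKO cells, 4104 were called with the same sign in CTL cells, 0 with the opposite sign and 559 not at all, and 7165 of the 13605 genes were called there (52.7%, against 60.7% of all genes tested). CTL cells had 5 libraries at 6 h and CKO cells 3, so the numbers of calls do not compare the sizes of the responses. Of the 1195 genes called higher in CKO cells, 1181 had a log2 change above 0 in CTL cells, and of the 3468 called lower, 3439 had one below 0. Across the 13605 genes, which are not independent replicates, the log2 changes correlated at 0.865. The log2 change was 5.79 ± 0.43 (SE) in CKO and 5.81 ± 0.41 in CTL cells for Il2, 5.02 ± 0.21 and 4.81 ± 0.20 for Gbp2, 3.98 ± 0.23 and 4.24 ± 0.22 for Nr4a3, and -1.44 ± 0.13 and -1.57 ± 0.11 for Lck.

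A test of the difference between the CKO and CTL responses called no gene. The interaction term gave 0 calls (0%) of 13605 by edgeR and 0 by DESeq2, with 506 and 665 genes at an unadjusted p under 0.05. With 3 libraries at 6 h in CKO cells the difference was measured less well than either response, so 0 calls do not show that the responses were equal. Cdkn1a had one of the smallest unadjusted p-values, with a log2 change of 2.91 ± 0.27 in CKO and 4.48 ± 0.27 in CTL cells (difference -1.57, adjusted p = 0.868). Il4 showed 1.59 ± 0.37 and 3.46 ± 0.36 (adjusted p = 0.868). Klf10, a TGF-beta-inducible zinc finger gene, showed -1.17 ± 0.14 and -0.48 ± 0.11, and Pcbp2 itself -0.96 ± 0.18 and -0.05 ± 0.14. These 4 genes were picked from the smallest unadjusted p-values, and none passed the adjustment.

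**Figure D4:**
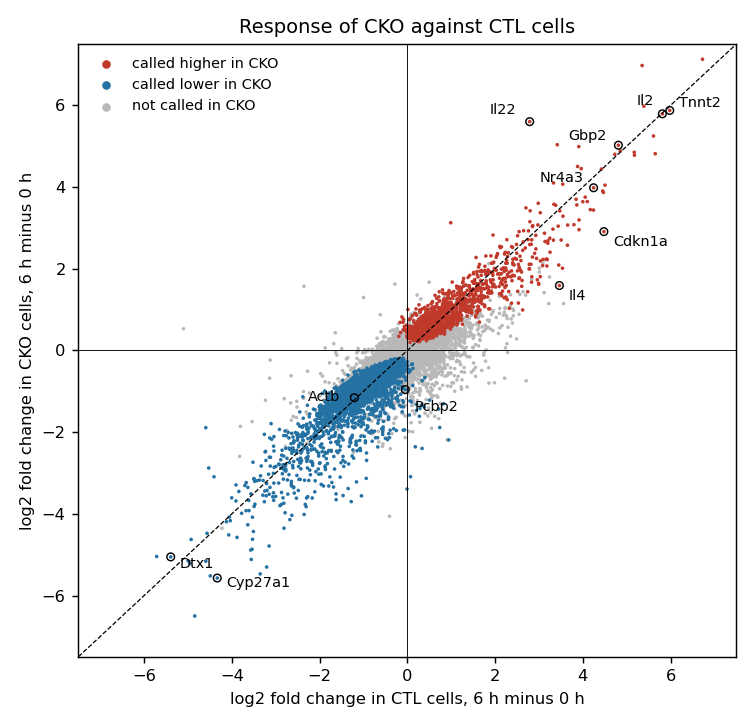
Log2 fold change (6 h minus 0 h) of each of the 13605 genes in CKO cells against that in CTL cells, coloured by the call in CKO cells, with a dashed line of equal change. Most points called in CKO cells lie in the lower left and upper right quadrants, and the circled Cdkn1a, Il4 and Pcbp2 lie off it without an adjusted p under 0.05 for the difference.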

How the data were processed

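Poly(A)-selected RNA of sorted mouse splenic CD4+CD25- T cells was sequenced in 20 libraries, per the labels. The authors deposited a table of raw read counts per Ensembl gene, and per the submitters' processing notes the tools were Trimmomatic 0.36, STAR 2.5.2b and featureCounts of Subread 1.5.2 on GRCm38. No source used here names the annotation release or the strand setting, so reads of overlapping or antisense genes cannot be told apart. Symbols came from GENCODE M21, which matched 49056 of 49315 IDs.

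Genes passing edgeR's filterByExpr (minimum count 10, minimum total 15) numbered 28082. They were fitted with edgeR 4.0.16 (R 4.3.3), robust quasi-likelihood, TMM factors, 20 libraries and 4 group means, with p-values adjusted by Benjamini and Hochberg. DESeq2 1.42.0, other scalings, filters, blocks, a sex term and left-out libraries were tried as alternatives. The script was tested on simulated data. Members and gene lists were chosen with earlier results of these data known. Genes named are Pcbp2 and its relatives, the 15 largest rises and falls at 4 CPM or more without predicted genes, the 10 largest in CPM, and called and abundant members of each list. Other genes and families named were picked after their values were seen. Across genes, deviations from the group means correlated between same-numbered CKO libraries (r = 0.155, 0.547 and 0.265 for 5.13, 5.6 and 11.18), but also between some of different number (0.185 for 5.13 with 4.29 and 0.234 for 5.6 with 4.24). The model has no block, and fits with the number as a block are alternatives. Promoters are RefSeq's (GRCm38.p6).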

Additional observations from a re-analysis of the deposited data

Results flagged for a closer look

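Among the 212 named genes, 20 had 1 unstimulated CKO library standing apart from the other 5 by Dixon's test at the 95% level. Chance alone flags about 1 in 20 groups, and no explanation was tested. All values are in CPM at 0 h. In library 5.13 the genes that stood apart were Pcbp1 at 333 (others 221 to 249), Dtx1 at 652 (others 424 to 492) and Actb at 8680 (others 5860 to 6500). It also held Pfn1 at 2280 (others 1620 to 1820), Chd3 at 1780 (others 1370 to 1450) and Il17a at 0.183 (others 0 to 0.0406). It also held Srf at 192 (others 156 to 166), Vim at 522 (others 322 to 396) and Ldha at 606 (others 410 to 464). It also held Acacb at 7.56 (others 4.53 to 5.53). In library 4.24 the genes that stood apart were Zfp683 at 11.7 (others 5.26 to 7.62), Irgm1 at 82.5 (others 107 to 121) and Il13 at 0.365 (others 0.0764 to 0.146). In library 5.6 the genes that stood apart were Arhgap45 at 3570 (others 2990 to 3190) and Mxd1 at 70.6 (others 52.6 to 58.8). In library 9.20 the genes that stood apart were Jun at 26.4 (others 5.62 to 7.12) and Junb at 395 (others 166 to 237). In library 11.18 the genes that stood apart were Ccl22 at 0.427 (others 0.0458 to 0.146), Prc1 at 23.4 (others 13.7 to 17.3) and Slc2a3 at 56.2 (others 62.6 to 65.5). Irgm1 in library 4.24 and Slc2a3 in library 11.18 were below the others, and the rest were above. Library 5.13 had the lowest TMM factor of the 0 h CKO libraries, 0.861.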

How the results depend on the processing

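Signs were compared for the 212 named genes only. No called gene among them changed sign in the 24 other settings. Of the uncalled ones 10 did, among them Il7r, Bcl6, Batf, Pcbp1, Pcbp3, Tbx21, Gata3 and Il2rg. Of 190 called named genes, 145 kept their call in every setting, 45 lost it in at least 1 and 163 kept it in all 9 fits that left out 1 CKO library. The calls of Plbd1, Dusp6, Lyz2 and Siglech were among those lost, in 1, 2, 2 and 5 settings. Against a fold of 1.5, 1560 genes were called, 436 higher and 1124 lower, and 2588 in CTL cells. Higher calls numbered 2063 with library totals, 2317 with the 13605 genes scaled alone, 1814 without the shallow CTL library and 773 without the 0 h libraries whose Xist goes against the label. With the number as a block 4914 genes were called (1177 higher, 3737 lower), with the number within genotype as a block 4028, and with the 9 CKO libraries alone 6405, or 5711 with the block. Scaling the 13605 genes alone together with the block, a setting chosen after seeing the data like the one before it, gave 2053 higher and 2231 lower. Leaving out each CKO library in turn gave 3309 to 4507 called genes, 820 to 1120 higher, 2437 to 3407 lower, 1383 to 1775 changed at least 2-fold, 7008 to 7159 called in CTL cells and 0 in the difference. DESeq2 called 4934. Counts behind genes under 1 CPM are few, and 3 stimulated libraries limit small changes. The causes were not tested.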
